A study of Mus musculus with 70 samples.

Results

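Dorsal hippocampus RNA of mice that had run voluntarily for 14 days was compared with that of sedentary mice, with both groups dissected 1 h after a brief spatial learning session. The running group is written 14-0-0 for its 14 days of initial exercise, 0 days of sedentary delay and 0 days of reactivating exercise, and the sedentary group is 0-0-0. The comparison takes 20 of the 70 libraries of the series, 10 per group, chosen by the exercise label and by having had the object location memory task (OLM). All were adult C57BL/6J males, and each library came from both dorsal hippocampi of 1 mouse. Mice were housed singly, runners in a cage with a wheel and sedentary mice in a standard cage, and wheels were taken away the evening before training. Training was a 3-min OLM acquisition, which is called subthreshold because it leaves little lasting memory in sedentary mice. Each group had 5 libraries from harvest cohort 1 (replicates 0 to 4) and 5 from harvest cohort 2 (replicates 5 to 9), and the methods state that tissue was collected on separate days with the groups balanced between them. The same 14-0-0 libraries were also set against 10 home cage libraries, whose labels give no exercise days and no OLM, and against 10 libraries of 14-14-0 mice, which ran for 14 days, rested for 14 days and then had OLM. These 3 comparisons share the 14-0-0 libraries and are therefore not independent of each other. Home cage and 14-0-0 mice differed in both running and training, which that comparison cannot tell apart.

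The dorsal hippocampus holds the dentate gyrus, where granule cells and new neurons reside, and the pyramidal fields CA1 to CA3, and it is needed to remember where objects were. Wheel running in rodents is known for its effects on newborn neurons, growth factors, blood vessels and sleep and activity rhythms. Learning itself switches on immediate early genes within minutes, so a dissection at 1 h catches RNA at a stage when these transcripts are already declining and slower activity-induced genes are present. Tissue pieces can also carry neighbouring structures, such as the choroid plexus of the lateral ventricle, the meninges, white matter or thalamus. In bulk tissue, fewer cells of a type and less RNA per cell cannot be told apart.

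Levels were FPKM, the fragments of a gene scaled by its length and by the size of the library, as normalized with Cuffnorm. Of 24346 genes, the 12994 that averaged 1 FPKM or more across the 70 libraries were tested by limma on log2(FPKM + 0.1), and all fold changes below are on that scale, on which changes of low genes are understated. A gene was called at an unadjusted p under 0.05. The sum of FPKM lay between 394969 and 469206 in the 20 libraries. Relative depth was estimated from the commonest ratio of low values to those of sedentary replicate 0, which was set to 1. It ran from 0.637 to 1 in sedentary and from 0.329 to 1.28 in 14-0-0 libraries. One sedentary library, replicate 6, stood apart. In it 462 genes differed by more than 2 log2 units from the median of its group, against 28 to 110 genes in the other 19 libraries. The 5 lowest and the 5 highest among its genes averaging 10 FPKM or more were all microRNA or small nucleolar RNA genes (Snora64, Mir6992, Mir8094, Mir686 and Snora70 low, Mir719, Mir7-1, Snora44, Mir6516 and Mir546 high). Among the remaining genes, picked after their values were seen, Neurod6, a transcription factor of excitatory forebrain neurons, stood at 2.45 FPKM against 130 to 235 in the other sedentary libraries. Slc17a7, the glutamate transporter that defines excitatory terminals, stood at 17.1 FPKM against 509 to 817. Calb2 stood at 121 FPKM against 3.33 to 10.5, and Vat1l at 82.2 against 2.56 to 9.03. The defining markers of hippocampal excitatory neurons were therefore low in this library, and every result below is given with it and, where its weight matters, without it.

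Running and sedentary hippocampi were compared gene by gene. At an unadjusted p under 0.05 in limma, 649.7 calls up or down are expected if no gene differs. With all 20 libraries, 794 genes were called higher in 14-0-0 (6.11% of genes tested) and 395 lower (3.04%). After Benjamini-Hochberg adjustment over all genes 0 passed in limma, with a smallest adjusted p of 0.279, while Cyber-T, the regularized test of the study's methods, gave 0 on log2 values and 1 on FPKM. On the same 20 libraries, limma's robust fit passed 34 higher and 20 lower genes (smallest adjusted p = 3.11e-25). A joint limma fit of all 7 groups, which takes its spread from all 70 libraries, passed 2 higher and 2 lower (smallest adjusted p = 0.0123). Without sedentary replicate 6 there were 906 calls up (6.97%) and 436 down (3.36%), of which 665 and 266 were calls of the full comparison in the same direction. The up calls thus kept 83.8% of their genes and the down calls 67.3%, and 0 called genes changed sign. In this reduced comparison 4 genes passed adjustment in limma, namely Hrk, Hmgb3, Mgst1 and Per2, with adjusted p values of 0.00373, 0.00592, 0.0261 and 0.0411. Leaving out any of the other 19 libraries in turn gave 0 genes past adjustment in limma, and 513 up and 200 down calls were made in all 20 of these reduced comparisons. The shares of all genes called are the background for the list counts below. They were 5.06% up and 2.45% down against home cage, and 5.48% and 1.68% against 14-14-0.

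**Figure D1:**
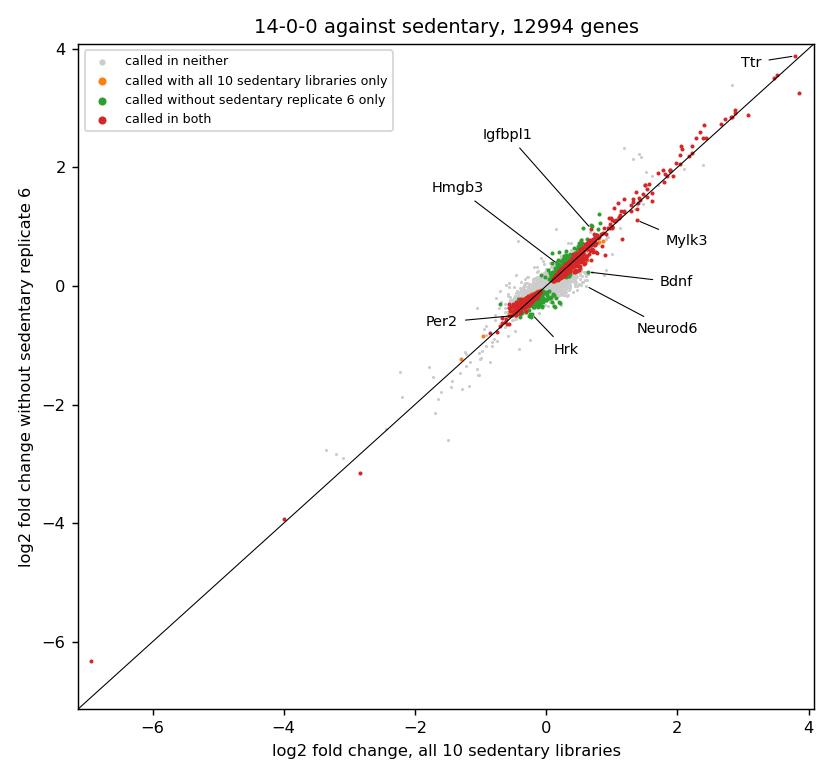
Log2 fold change of 14-0-0 against sedentary for the 12994 genes tested, with all 10 sedentary libraries (x axis) and without sedentary replicate 6 (y axis); the line marks equal values. Colours give the limma calls at an unadjusted p under 0.05, and most called genes lie near the line, while Hrk, Hmgb3, Neurod6 and Bdnf lie off it, with Neurod6 at 0.60 with the library and 0.00 without it.

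The 4 genes that passed adjustment without replicate 6 were picked after their values were seen, and Hrk and Hmgb3 were not called with that library included. Comparisons of these genes with home cage and 14-14-0 reuse the 14-0-0 values by which they were picked and are not independent support. The share of all genes whose groups separate completely is not given. Hrk encodes a BH3-only protein that promotes apoptosis in neurons. It lay between 10.4 and 12.8 FPKM (median 11.7) in the 14-0-0 libraries and between 12.9 and 17.9 FPKM (median 16.4) in the 9 other sedentary libraries, while sedentary replicate 6 stood at 2.66. All 10 running mice were thus below all sedentary mice but that one. The log2 fold change was -0.22 ± 0.25 (SE, limma unadjusted p = 0.384) with the library and -0.47 ± 0.06 without it. Home cage libraries held 14.1 to 19.6 FPKM of Hrk, above every 14-0-0 library, and that difference (-0.53 ± 0.06) passed adjustment with all libraries (limma adjusted p = 0.000367). In 14-14-0 mice, Hrk ran from 7.55 to 17.8 FPKM and overlapped with 14-0-0 (-0.18 ± 0.11, limma unadjusted p = 0.0963).

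Hmgb3, a chromatin protein of the HMG-box family, lay between 9.93 and 11.9 FPKM in 14-0-0 and between 7.67 and 9.36 in the 9 sedentary libraries, with replicate 6 at 30.1. The groups did not overlap apart from that library, and the log2 difference without it was 0.36 ± 0.05 (SE). Against home cage, Hmgb3 was also called higher (0.21 ± 0.08, limma unadjusted p = 0.0211), with overlapping ranges. Mgst1, a membrane-bound glutathione transferase that detoxifies lipid peroxides, was called with and without the library (0.41 ± 0.15 and 0.54 ± 0.09), but not after adjustment for choroid plexus score (0.17, limma unadjusted p = 0.293). Its range was 10.8 to 16.5 FPKM in 14-0-0 and 8.06 to 12.3 in the 9 sedentary libraries, with 8 running mice above all of these. It did not differ detectably from home cage (limma unadjusted p = 0.23) or 14-14-0 (p = 0.958), where it reached 22.8 and 25.8 FPKM.

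**Figure D2:**
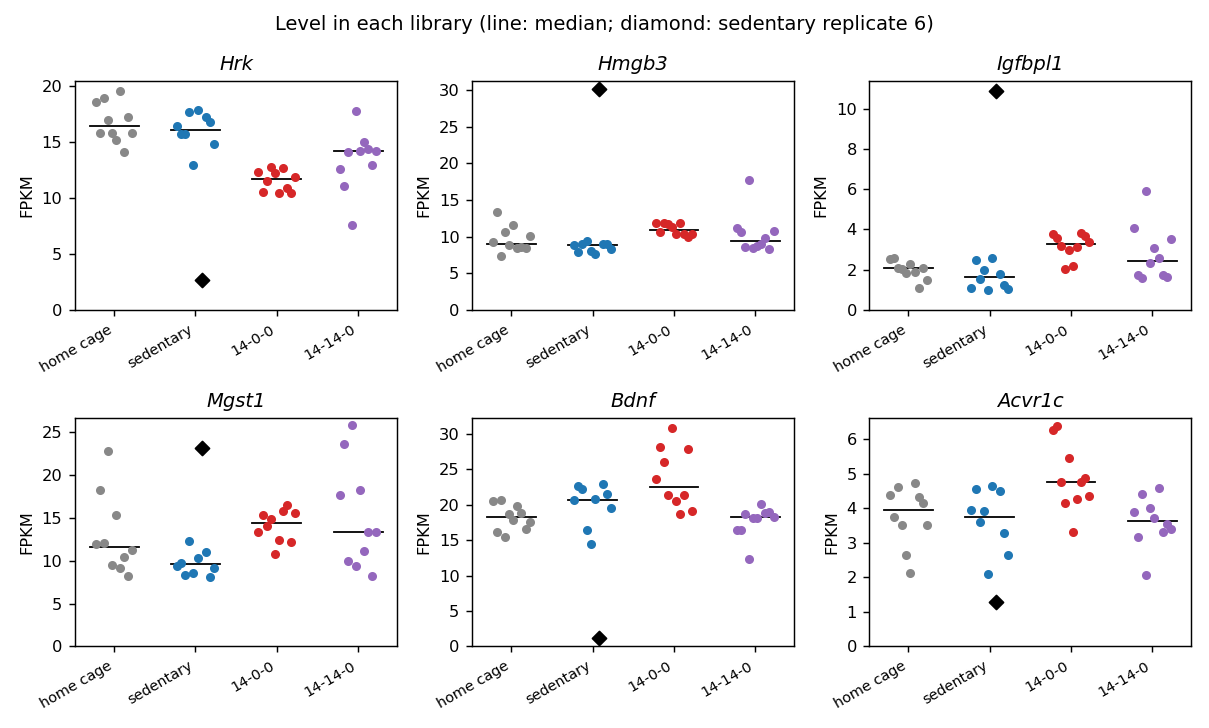
FPKM (y axis, from 0) of 6 genes in each of the 10 libraries of home cage, sedentary, 14-0-0 and 14-14-0 mice; points are libraries, lines are group medians and the black diamond is sedentary replicate 6. Without the diamond, Hrk separates 14-0-0 (10.4 to 12.8) from sedentary (12.9 to 17.9), and the diamond is the highest sedentary value of Hmgb3, Igfbpl1 and Mgst1 and the lowest of Hrk, Bdnf and Acvr1c.

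The 15 genes called higher with the smallest p in both the full and the reduced comparison had log2 fold changes between 0.23 and 1.38, with SEs from 0.05 to 0.33, and all 15 were called in each of the 20 comparisons that leave out 1 library. They were called in each harvest cohort taken alone. The genes were chosen by their p in these same libraries, so these counts describe them and are not independent support. Hrsp12, which hydrolyses reactive imines and enamines formed in amino acid breakdown, had the smallest p. It ran from 41.1 to 58.8 FPKM in 14-0-0 (median 49.8) and from 31.4 to 44 FPKM in sedentary libraries (median 40.9). All but 1 of the running mice lay above every sedentary mouse, and the difference was 0.34 ± 0.07 (SE, limma adjusted p = 0.279). Mylk3, a myosin light chain kinase best known from heart muscle, had the largest change of the 15. Its level ran from 1.65 to 3.44 FPKM (median 3.01) in 14-0-0 and from 0.0993 to 2.23 FPKM (median 1.08) in sedentary libraries, with 8 running mice above all sedentary ones. The lowest sedentary value was again that of replicate 6, and the difference fell from 1.38 ± 0.33 to 1.11 ± 0.21 without it. Mylk3 was also higher than in home cage (1.02 ± 0.21) and 14-14-0 mice (1.10 ± 0.20).

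Decr1, a mitochondrial reductase needed to oxidize unsaturated fatty acids, was higher by 0.26 ± 0.06 (SE), and Nsdhl, a dehydrogenase of cholesterol synthesis, by 0.31 ± 0.07. Gm2a, the activator protein for GM2 ganglioside breakdown, was higher by 0.25 ± 0.06, Pon2, a membrane-bound lactonase, by 0.27 ± 0.06, and Smpdl3a, a phosphodiesterase related to acid sphingomyelinase, by 0.43 ± 0.10. The rest included Ggh (folate hydrolysis, 0.64 ± 0.14), Edn3 (endothelin 3, 0.38 ± 0.08), Pir (an iron-binding nuclear protein, 0.40 ± 0.09), Bre (a subunit of deubiquitinating complexes, 0.23 ± 0.05), Ift57 (intraflagellar transport, 0.25 ± 0.06), Ttc23 (0.46 ± 0.11) and AW495222 (0.57 ± 0.12). In each of the 15 genes, all 10 running mice lay above the sedentary median. Of the 15, 10 were also called higher against home cage (5.06% of genes tested were) and 7 against 14-14-0 (5.48%). Both comparisons reuse the 14-0-0 values by which the genes were chosen, so these counts are not independent support either. With the choroid plexus score described below as a covariate, where 4.1% of genes were called up, 14 of the 15 were still called, the exception being Smpdl3a (0.16, limma unadjusted p = 0.0694).

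The 10 genes called lower by the same rule changed by -0.21 to -0.71. They were 3 clock genes (Per2, Ciart and Dbp), the immediate early gene Egr1, the activin subunit gene Inhbb, the RNA-editing enzyme gene Adar (-0.21 ± 0.05, SE), Srrt, whose product joins the nuclear cap-binding complex to RNA processing (-0.37 ± 0.09), the membrane-curving protein gene Fnbp1 (-0.30 ± 0.07), the scaffold gene Dlg5 (-0.24 ± 0.06) and the rhomboid family gene Rhbdl3 (-0.41 ± 0.10). In 9 of the 10, every running mouse lay below the sedentary median, and in Ciart 9 of 10 did. All 10 were called in each comparison that leaves out 1 library and after adjustment for choroid plexus score, where 1.85% of genes were called down. Against home cage 4 of them were called lower (2.45% of genes tested were) and against 14-14-0 7 (1.68%). As for the higher genes, these counts rest on libraries by which the genes were chosen and are not independent support.

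The molecular clock is a feedback loop in which Arntl (BMAL1) with Clock switches on the Per and Cry genes and the output factors Dbp, Tef and Hlf, while the Per and Cry proteins shut Arntl and Clock down. Of the 17 clock genes tested, 7 were called lower (Per1, Per2, Per3, Ciart, Dbp, Nr1d2 and Tef) and 1 higher (Arntl), and 12 of 17 were below 0. Without sedentary replicate 6 there were 9 lower, with Bhlhe40 and Cry2 added, and again Arntl higher. Over all genes 3.04% were called lower with the library and 3.36% without it, and 6.11% and 6.97% higher. The median log2 fold change of the list was -0.17 with the library and -0.21 without it, against 0.01 and 0.00 over all genes tested, and -0.21 and -0.08 in harvest cohorts 1 and 2.

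Per2, the repressor with the smallest p of all lower genes, ran from 4.59 to 6.15 FPKM (median 5.51) in 14-0-0 and from 5.7 to 10.7 FPKM (median 7.18) in sedentary mice. The only sedentary mouse inside the running range was replicate 6 at 5.7, and the other 9 began at 6.53. The difference was -0.45 ± 0.09 (SE) with it and -0.50 ± 0.09 without it. Ciart, a repressor of the Arntl and Clock pair, ran from 2.2 to 5.18 FPKM (median 3.02) in 14-0-0 and from 3.78 to 7.6 (median 4.96) in sedentary mice. Here 8 running mice lay below every sedentary mouse and 2 inside their range (-0.71 ± 0.15). Dbp, a transcription factor that carries clock output, ran from 8.09 to 13.9 FPKM (median 9.9) against 11.5 to 19.6 (median 14.4). Of the running mice 7 were below all sedentary mice, and the difference was -0.49 ± 0.12. Arntl showed the opposite order, with 11.2 to 17.4 FPKM (median 15.8) in 14-0-0 against 8.22 to 13.9 (median 12.1). Of the running mice 8 lay above all sedentary ones, and the difference was 0.36 ± 0.09, or 0.30 ± 0.07 without replicate 6, which held the lowest value. Per1 (-0.45 ± 0.14), Per3 (-0.40 ± 0.15) and Nr1d2 (REV-ERB beta, -0.26 ± 0.10) were called in all 20 comparisons that leave out 1 library, whereas Tef (-0.15 ± 0.07) was called in 8 of them.

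The clock genes called differed with the reference group, a difference that was not itself tested. Against 14-14-0 mice, 5 of the 17 genes were called lower (Ciart, Dbp, Nr1d2, Per2 and Per3) and 2 higher, Arntl by 0.37 ± 0.07 (SE) and Nfil3. The difference in Dbp was -0.56 ± 0.10 there and that in Per2 -0.26 ± 0.07. Of all genes, 1.68% were called lower against 14-14-0 and 5.48% higher, and 2.45% and 5.06% against home cage. Against home cage mice, 3 genes were called lower (Per3, Tef and Hlf) and Npas2 higher, while Per2 differed by -0.03 ± 0.12 (limma unadjusted p = 0.825) and Arntl by 0.12 ± 0.09 (p = 0.212). Home cage mice thus lay between the sedentary and the running group for Arntl, with a median of 14.3 FPKM, and close to the running group for Per2, with a median of 5.58 FPKM. The labels give no hour of dissection for single libraries, and its part in these differences was not tested.

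**Figure D3:**
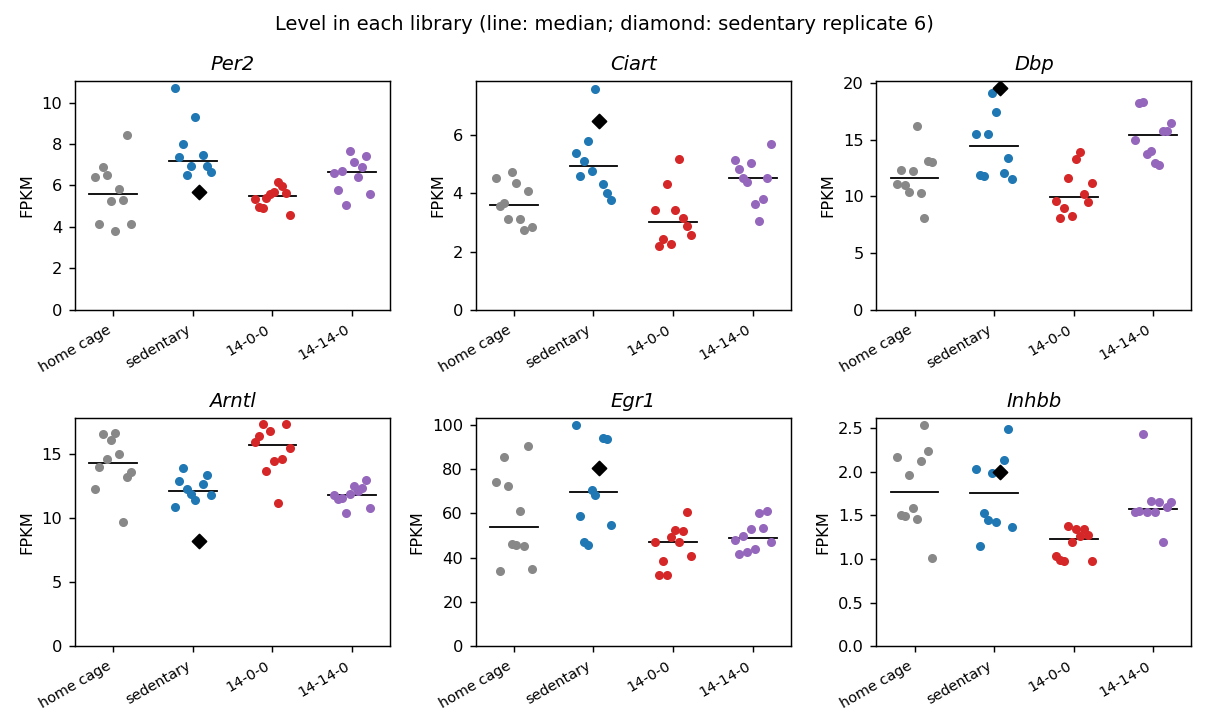
FPKM (y axis, from 0) of 4 clock genes, Egr1 and Inhbb in each of the 10 libraries of home cage, sedentary, 14-0-0 and 14-14-0 mice; points are libraries, lines are medians and the diamond is sedentary replicate 6. The 14-0-0 medians of Per2 (5.51), Ciart (3.02), Dbp (9.9), Egr1 (47) and Inhbb (1.23) lie below the sedentary medians, and that of Arntl (15.8) lies above.

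The promoters of the called clock genes, 7 lower and Arntl higher, are shown because these genes are known to share short binding motifs. RefSeq windows on GRCm38.p6 from 250 bases before to 50 bases after a start were found for 7 of the 8 called genes (not Per2), as 10 windows, and were searched on both strands for the E-box CACGTG, bound by the Arntl and Clock pair, the D-box TTATGTAA, bound by Dbp, Tef and Hlf and by their antagonist Nfil3, and the half-site AGGTCA, bound by the nuclear receptors of the Nr1d and Ror families. The 3 motifs do not overlap one another in the windows below. The Ciart window is chr3:95882179-95882478 on the minus strand, that of Per1 chr11:69098699-69098998 on the plus strand, that of Per3 chr4:151044616-151044915 on the minus strand and that of Arntl chr7:113207261-113207560 on the plus strand. Capitals mark the matches.
Ciart: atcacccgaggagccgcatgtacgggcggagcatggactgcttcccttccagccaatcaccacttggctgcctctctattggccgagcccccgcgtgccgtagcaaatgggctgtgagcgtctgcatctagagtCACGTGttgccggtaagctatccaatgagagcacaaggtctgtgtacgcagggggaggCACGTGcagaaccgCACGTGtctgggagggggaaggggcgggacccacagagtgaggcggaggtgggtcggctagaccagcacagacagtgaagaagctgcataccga
Per1: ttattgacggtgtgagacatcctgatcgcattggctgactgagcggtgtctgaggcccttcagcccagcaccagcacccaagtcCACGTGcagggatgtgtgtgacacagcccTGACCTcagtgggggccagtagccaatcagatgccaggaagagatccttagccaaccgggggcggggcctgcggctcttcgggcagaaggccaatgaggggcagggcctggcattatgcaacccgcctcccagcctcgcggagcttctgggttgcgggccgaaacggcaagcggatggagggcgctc
Per3: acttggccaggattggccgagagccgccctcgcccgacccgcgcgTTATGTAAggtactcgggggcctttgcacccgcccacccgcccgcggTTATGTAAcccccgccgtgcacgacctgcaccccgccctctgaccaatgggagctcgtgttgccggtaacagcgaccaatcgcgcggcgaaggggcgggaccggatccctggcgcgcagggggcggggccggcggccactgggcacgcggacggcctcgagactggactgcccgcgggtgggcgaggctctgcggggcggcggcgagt
Arntl: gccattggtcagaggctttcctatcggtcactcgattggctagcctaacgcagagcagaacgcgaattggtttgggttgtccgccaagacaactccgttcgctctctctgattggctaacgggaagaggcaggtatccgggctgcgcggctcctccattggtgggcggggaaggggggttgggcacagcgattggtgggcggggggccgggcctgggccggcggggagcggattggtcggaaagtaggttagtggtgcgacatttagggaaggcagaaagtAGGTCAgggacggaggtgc
The Ciart window held 3 E-boxes, which begin 116, 58 and 44 bases before the start. The Per1 window held 1 E-box, 166 bases before the start, and 1 half-site on the reverse strand. The Per3 window held 2 D-boxes, 205 and 158 bases before the start, and the Arntl window 1 half-site after the start. Over all 7 genes, E-boxes were found for 3 (Ciart, Per1 and Tef), D-boxes for 1 and half-sites for 3 (Arntl, Per1 and Nr1d2), and the window of Dbp held none of these motifs. Of all 32851 RefSeq promoter windows of this length, 7.15% held an E-box, 0.938% a D-box and 16.3% a half-site. These shares are per window, while the counts for the 7 genes are per gene over 10 windows, so the 2 cannot be compared directly. These matches describe letters in the windows and are not measured binding sites.

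Immediate early genes, which neurons transcribe within minutes of strong activity, gave calls in 1 direction. Of 18 tested, 7 were called lower (Egr1, Npas4, Fos, Fosb, Arc, Dusp1 and Egr4), 0 higher, and 16 were below 0, with a list median of -0.40. Without sedentary replicate 6, 8 were called lower (Egr3, Nr4a1 and Nr4a3 in place of Dusp1 and Egr4) and all 18 were below 0 (median -0.43). Of all genes, 3.04% were called lower with that library and 3.36% without it, and 52.5% and 48.9% were above 0. Egr1, a zinc finger factor induced by learning, ran from 32.1 to 60.7 FPKM (median 47) in 14-0-0 and from 45.9 to 99.7 (median 69.4) in sedentary mice. Of the running mice 4 lay below all sedentary mice, and the groups overlapped between 45.9 and 60.7 (-0.63 ± 0.15, SE). Fos ran from 1.88 to 7.48 FPKM (median 3.59) against 3.22 to 16.3 (median 6.1), and 9 of 10 running mice lay below the sedentary median (-0.85 ± 0.30). Npas4, a factor specific to neuronal activity (-0.60 ± 0.21), Fosb (-0.57 ± 0.21) and Arc, a synaptic capsid-like protein (-0.75 ± 0.32), moved alike, and Arc was called in 15 of the 20 comparisons that leave out 1 library. Within harvest cohorts 1 and 2 the list medians were -0.48 and -0.29.

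The mean level of these genes spread widely in both groups. The list score, the mean over the genes of the log2 value minus its mean over the 70 libraries, ran from -0.33 to 1.14 (median 0.16) in sedentary and from -0.67 to 0.50 (median -0.34) in 14-0-0 libraries, of which 5 lay below all sedentary ones. Against home cage mice, which had no training, 4 genes were called lower (Arc, Btg2, Dusp1 and Npas4), beside 2.45% of all genes, with a list median of -0.24. Against 14-14-0 mice 0 of 18 were called in limma at an unadjusted p under 0.05, and the median was -0.03. Adjusted for choroid plexus score, 2 of 18 were called lower, and Fos (-0.56, limma unadjusted p = 0.134), Fosb and Arc were no longer called. The part of the choroid plexus content in the immediate early gene difference was not tested beyond this.

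Slower activity-induced genes gave few calls, with a list median of 0.02. Of 15 tested, 1 was called, Scg2, the precursor of the neuropeptide secretoneurin, which was higher by 0.22 ± 0.08 (SE). Without replicate 6, 4 of the 15 were called, Bdnf, Rgs2 and Scg2 higher and Dusp5 lower. Scg2 was also higher against home cage (0.22 ± 0.08) and 14-14-0 (0.32 ± 0.06). Against these groups 4 and 5 genes of the list were called higher and 0 lower, Bdnf, Nptx2, Ptgs2 and Scg2 in both. The shares of all genes called higher were 5.06% and 5.48%. Bdnf, the neurotrophin most often tied to running, ran from 18.7 to 30.8 FPKM (median 22.5) in 14-0-0. It ran from 14.4 to 22.9 FPKM (median 20.8) in the 9 sedentary libraries, with replicate 6 at 1.18. It was called without that library (0.24 ± 0.11, limma unadjusted p = 0.0381) and not with it (0.63 ± 0.39, p = 0.116). The Bdnf difference was 0.45 in harvest cohort 1, and in cohort 2 it was 0.82 with replicate 6 and 0.01 without it. Among 14 neurotrophins and exercise factors, Ctsb, which encodes the secreted protease cathepsin B, was called higher (0.16 ± 0.05). This 1 call is near the background of 6.11% of all genes called higher. The list median was 0.01 with and -0.01 without replicate 6, and 2 genes, among them the receptor gene Igf1r, were called lower without it. Tac2, the precursor of neurokinin B, was picked after its values were seen. It ran from 5.37 to 7.7 FPKM in 14-0-0 and from 2.39 to 6.05 in the 9 sedentary libraries, with replicate 6 at 7.96, and was higher than in sedentary (0.60 ± 0.16), home cage (0.66 ± 0.11, limma adjusted p = 0.03) and 14-14-0 mice (0.86 ± 0.15).

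In the activin and TGF-beta family, 2 of 11 receptors were called higher and 0 lower, with a list median of 0.11 with and 0.02 without sedentary replicate 6. Of all genes, 6.11% were called higher and 3.04% lower. Acvr1c, a type I receptor (ALK7) for activin and nodal ligands, ran from 3.3 to 6.37 FPKM (median 4.76) in 14-0-0 and from 1.3 to 4.64 (median 3.76) in sedentary mice, where the lowest value was that of replicate 6. Of the running mice 6 lay above all sedentary ones, and the difference fell from 0.54 ± 0.19 to 0.40 ± 0.15 (SE) without that library. Tgfbr2, the type II TGF-beta receptor, was higher by 0.21 ± 0.09, but its difference was 0.05 (limma unadjusted p = 0.626) after adjustment for choroid plexus score. Among 15 ligands, Smads and modulators, Inhbb and Smad1 were called lower and Bambi higher. The call of Smad1 was lost without replicate 6 (limma unadjusted p = 0.0501) and after adjustment for choroid plexus score (p = 0.164), and it held in 13 of the 20 comparisons that leave out 1 library. Inhbb, which encodes the beta B subunit of activin B and inhibin B, ran from 0.973 to 1.38 FPKM (median 1.23) in 14-0-0 and from 1.15 to 2.49 (median 1.76) in sedentary mice. Of the running mice 4 lay below all sedentary ones. The differences were -0.52 ± 0.12 against sedentary, -0.55 ± 0.13 against home cage and -0.44 ± 0.10 against 14-14-0. Bambi, a decoy receptor that dampens TGF-beta and BMP signals, was higher against the same groups by 0.42 ± 0.12, 0.42 ± 0.13 and 0.34 ± 0.13.

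Of 23 genes for cholesterol synthesis and uptake, 18 were above 0, as were 52.5% of all genes tested, 4 were called higher (Nsdhl, Msmo1, Idi1 and Cyp51; 6.11% of all genes were) and 0 lower, with a median of 0.08. Against home cage 21 were above 0 and 7 called higher, where 59.6% of all genes were above 0 and 5.06% called higher. Against 14-14-0 these counts were 21 and 8, beside 55.6% and 5.48% of all genes. Nsdhl ran from 11.1 to 14.7 FPKM in 14-0-0 and from 8.98 to 13.2 in sedentary mice, and 5 running mice exceeded all sedentary ones. Msmo1 and Cyp51, which demethylate sterol intermediates, differed by 0.22 ± 0.09 (SE) and 0.17 ± 0.08, and Idi1, an isomerase of the isoprenoid steps, by 0.22 ± 0.10. Cyp51 was called in 10 and Idi1 in 12 of the 20 comparisons that leave out 1 library, Idi1 not without sedentary replicate 6.

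Chaperones of the endoplasmic reticulum, which fold secreted and membrane proteins, gave calls in 1 direction. Of 17 tested, 12 were below 0 and 4 were called lower, beside 3.04% of all genes: Pdia6, a disulfide isomerase (-0.27 ± 0.10, SE), Hyou1 (-0.22 ± 0.08), Xbp1, a transcription factor that induces such chaperones (-0.24 ± 0.11), and the calcium-binding chaperone Calr (-0.19 ± 0.09). Pdia6 ran from 42.2 to 60.3 FPKM (median 49) in 14-0-0 and from 48.9 to 89.6 (median 56.8) in sedentary mice, and 5 running mice lay below all sedentary ones. Without replicate 6 the calls of Xbp1 and Calr were lost (limma unadjusted p = 0.0652 and 0.0755), and the list median was -0.15 with and -0.12 without it. Against home cage 7 of 17 were called lower (median -0.23), beside 2.45% of all genes, and against 14-14-0 16 were below 0 but 0 called in limma at an unadjusted p under 0.05. Adjusted for choroid plexus score, 9 were called lower. Within harvest cohorts 1 and 2 the medians were -0.26 and -0.05.

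Glucocorticoid-responsive genes gave 1 call against sedentary and 8 against home cage mice, all higher, out of 11 tested, beside 6.11% and 5.06% of all genes called higher. The share against sedentary is near the background. By their labels home cage mice had neither run nor been trained, so these 8 calls cannot be assigned to running or to training. The median list score was -0.20 in home cage, -0.01 in sedentary, 0.10 in 14-0-0 and -0.02 in 14-14-0 libraries. Sgk1, a kinase induced by corticosterone, was the 1 of 11 genes called against sedentary, with 35.6 to 91.5 FPKM (median 60.5) in 14-0-0 and 34.6 to 52.3 (median 40.2) in sedentary mice. Of the running mice 6 lay above all sedentary ones and the others inside their range (0.45 ± 0.15, SE). Home cage mice held 23.2 to 41.8 FPKM, and the difference of 0.97 ± 0.15 passed adjustment in limma (adjusted p = 0.02). Against 14-14-0 1 of the 11 genes, Ddit4, was called higher. Fkbp5, a classic target of the receptor, differed by -0.01 ± 0.11 from sedentary and 0.03 from home cage. Adjusted for choroid plexus score, the Sgk1 difference from sedentary was 0.05 (limma unadjusted p = 0.642).

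Among receptors for inhibitory transmission, 2 of 12 genes for GABA-A receptor subunits were called higher, with a list median of 0.17 with and 0.11 without sedentary replicate 6. Of all genes, 6.11% were called higher with that library and 6.97% without it. Gabra4, the alpha 4 subunit, ran from 35.6 to 46.5 FPKM (median 41) in 14-0-0 and from 26.7 to 44.8 FPKM in the 9 sedentary libraries, with replicate 6 at 18.9. In 14-0-0, 3 mice lay above all sedentary ones, and the difference was 0.28 ± 0.12 (SE) with the library and 0.19 ± 0.08 without it. Gabra4 was also called against home cage (0.16 ± 0.06) and 14-14-0 (0.20 ± 0.07), where 4 and 5 members of the list were called higher and 0 lower. The shares of all genes called higher there were 5.06% and 5.48%. For AMPA and NMDA receptor subunits 0 of 10 were called in limma at an unadjusted p under 0.05, with medians of 0.04 with and -0.07 without replicate 6.

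Energy genes showed few calls. Oxct1, which lets neurons use ketone bodies, was higher (0.15 ± 0.06, SE), as were the pyruvate dehydrogenase kinases Pdk1 (0.18 ± 0.08) and Pdk3 (0.16 ± 0.08), while the neuronal glucose transporter gene Slc2a3 was lower (-0.12 ± 0.05). These were 4 of 25 genes for glucose, lactate and ketone handling, and the calls of Pdk1 and Pdk3 were lost without replicate 6. In the larger lists 1 gene each was called, higher in every case: Ndufa1 (0.39 ± 0.11) of 37 complex I genes, Uqcrc2 (0.16 ± 0.06) of 35 genes of complexes III, IV and V, Rpl26 of 77 cytosolic ribosomal proteins, Mrpl50 of 73 mitochondrial ribosomal proteins and Psma4 (0.16 ± 0.07) of 14 proteasome core genes. The calls of Rpl26 and Mrpl50 were lost without replicate 6 (limma unadjusted p = 0.0781 and 0.0687). With 6.11% of all genes called higher, 1 call per list is near or below the background and is no result about these lists. Of 15 Sm and LSm splicing proteins 0 were called in limma at an unadjusted p under 0.05. Among 14 heat shock and cold-inducible genes, the cold-inducible RNA-binding protein genes Cirbp (0.27 ± 0.10) and Rbm3 (0.35 ± 0.13) were higher and Dnajb1 lower (-0.25 ± 0.12), the last not without replicate 6. Among 16 histone deacetylases and CREB coactivators, Hdac9 was higher (0.22 ± 0.09) and Crtc2 lower (-0.23 ± 0.08). Of 33 intraflagellar transport and BBSome genes 6 were called higher, beside 6.11% of all genes. Among them were Ift57, Dync2li1 (0.20 ± 0.08), Ift74 (0.19 ± 0.08) and Bbs10 (0.22 ± 0.09). Without replicate 6, 5 were, with Bbs10 (limma unadjusted p = 0.0606) and Ift46 lost and Ift52 gained. Adjusted for choroid plexus score, Dync2li1, Ift74 and Bbs10 were not called.

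**Figure D4:**
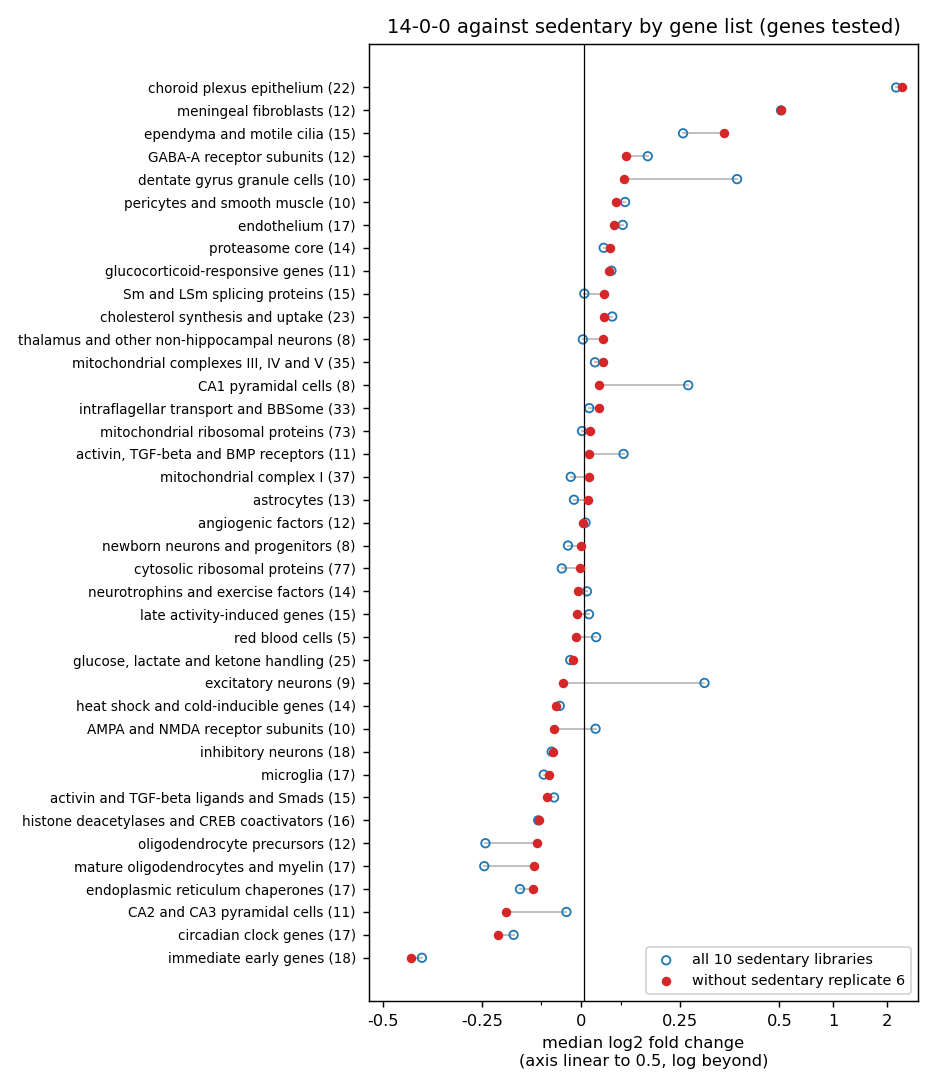
Median log2 fold change of 14-0-0 against sedentary (x axis, linear up to 0.5 and logarithmic beyond) for each of the 39 gene lists, with the number of genes tested in brackets; open circles use all 10 sedentary libraries, filled circles leave out replicate 6, and the vertical line is the median of all genes. Leaving the library out moved the median from 0.31 to -0.04 for excitatory neurons and from 0.39 to 0.11 for dentate gyrus granule cells.

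Lists of excitatory cells moved with the single sedentary library. The median of 9 excitatory neuron genes was 0.31 with sedentary replicate 6 and -0.04 without it, that of 10 dentate gyrus granule cell genes 0.39 and 0.11, that of 8 CA1 genes 0.27 and 0.05, and that of 11 CA2 and CA3 genes -0.04 and -0.19. The score of excitatory neurons was -3.41 in that library and between -0.21 and 0.41 in the other sedentary libraries, where the 14-0-0 libraries lay between -0.30 and 0.52. Of excitatory neuron and granule cell genes 0 were called in the full comparison in limma at an unadjusted p under 0.05, and Tbr1 was called lower without replicate 6 and against home cage. The defining genes Slc17a7 (0.41 ± 0.49, SE) and Neurod6 (0.60 ± 0.57) stood at -0.11 and 0.00 without the library. In CA1, Man1a, a Golgi mannosidase (0.36 ± 0.10), and Ndst4, a heparan sulfate enzyme (0.51 ± 0.21), were called with and without it. In CA2 and CA3, Grik4 and Cdh24 were called lower without it. Among 18 inhibitory neuron genes, 11 were below 0 and 7 above. Lhx6, a factor of interneurons from the medial ganglionic eminence (-0.26 ± 0.09), and Nos1, the neuronal nitric oxide synthase (-0.22 ± 0.09), were lower with and without it. Nos1 was lower against home cage (-0.39) and 14-14-0 (-0.29) too, whereas Lhx6 was called against neither. Npy and Vip were called higher against 14-14-0. Of 8 genes of thalamic and other non-hippocampal neurons 0 were called, although their score in replicate 6 (1.23) was far above the other sedentary libraries (-0.50 to 0.20).

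Among 8 genes of newborn neurons and progenitors, Igfbpl1, a marker of immature granule neurons, was called higher (0.69 ± 0.31, SE). It lay between 2.01 and 3.8 FPKM (median 3.27) in 14-0-0 and between 0.959 and 2.59 (median 1.52) in the 9 sedentary libraries, with replicate 6 at 10.9. Without that library 8 running mice exceeded all sedentary ones (0.96 ± 0.18), and Dcx, the microtubule protein of migrating neurons, was called higher as well. Against home cage both were called higher and 3 genes lower, among them the progenitor genes Nes and Sox2. The list median was -0.03 with and 0.00 without replicate 6.

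Glial lists gave few calls. All 17 genes of mature oligodendrocytes and myelin were below 0 (median -0.24), but 0 were called in limma at an unadjusted p under 0.05. Mbp, the myelin basic protein gene, ran from 1080 to 2220 FPKM in 14-0-0 and from 977 to 4390 in sedentary mice, the highest being replicate 6 (-0.37 ± 0.20, SE, limma unadjusted p = 0.0817). The list median was -0.12 without that library, and 0.01 and -0.48 in harvest cohorts 1 and 2. Of 12 oligodendrocyte precursor genes 0 were called, with a median of -0.24 with and -0.11 without replicate 6. Among 13 astrocyte genes, Agt, which encodes angiotensinogen, was lower (-0.45 ± 0.21, and -0.28 without replicate 6, where it stood at 24.5 FPKM against at most 8.35 in 14-0-0). Of 17 microglia genes 0 were called in the full comparison, and Csf1r and Itgam were called lower without replicate 6.

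Choroid plexus epithelium gave the largest median change of the 39 lists. All 22 of its genes were called higher, with a median log2 fold change of 2.25, or 2.43 without sedentary replicate 6. In harvest cohort 1 alone 2 of the 22 were called (median 1.60) and in cohort 2 alone 19 (median 2.81). Ttr, the transthyretin gene that defines this epithelium, ran from 25.6 to 15600 FPKM (median 2220) in 14-0-0 and from 15.5 to 344 (median 74.4) in sedentary mice. Ttr varied among the sedentary libraries but never exceeded 344 FPKM, while the running libraries ranged from low to high. The choroid plexus score lay between -2.11 and 0.07 in sedentary libraries and between -1.61 and 4.45 in 14-0-0, where 6 of 10 exceeded all sedentary libraries and the others overlapped with them. Kcne2, a potassium channel subunit of that epithelium, differed by 3.52 ± 0.90 (SE) and Kcnj13 by 3.47 ± 0.91. Home cage and 14-14-0 libraries were as wide, from -1.23 to 4.21 with 3 above all sedentary libraries and from -1.67 to 4.8 with 5. Against these groups 0 of the 22 genes were called in limma at an unadjusted p under 0.05, with medians of 0.99 and 0.04.

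Meningeal fibroblast genes moved with it. All 12 were above 0 and 6 were called higher (median 0.51 with and without sedentary replicate 6), among them Igf2 (1.53 ± 0.40, SE), Pcolce (1.43 ± 0.43), Lum (0.76 ± 0.30) and Dcn (0.73 ± 0.30), which encode a growth factor and proteins of the collagen matrix. Igf2 ran from 11.3 to 165 FPKM in 14-0-0 and from 8.74 to 22.8 in sedentary mice. Against home cage and 14-14-0, 0 of the 12 were called in limma at an unadjusted p under 0.05, with medians of 0.00 and -0.21. Against sedentary the list median was 0.18 in harvest cohort 1 and 0.81 in cohort 2. After adjustment for choroid plexus score 0 of 12 were called there in limma. Of 17 endothelial genes, Itm2a (0.27 ± 0.08), Kdr, the main VEGF receptor (0.26 ± 0.10), Slco1a4 (0.21 ± 0.08) and Emcn (0.30 ± 0.13) were called higher with and without replicate 6. With that covariate 1 of the 17 was, since Kdr went to 0.12, Slco1a4 to 0.13 and Emcn to -0.04, and Itm2a stayed at 0.31. Against home cage Slc2a1 was called higher and Flt1 lower, and Kdr differed by -0.20 ± 0.12. Against 14-14-0 Itm2a was called higher and Flt1 lower. The endothelial list medians there were -0.02 and -0.01. Kdr was also the 1 of 12 angiogenic factors called against sedentary. In ependyma and motile cilia, Pifo was called of 15 genes (1.18 ± 0.54), 4 were without replicate 6, and its difference was -0.25 with the covariate. For 10 genes of pericytes and smooth muscle all were above 0 (median 0.11) and 0 were called, and of 5 red blood cell genes 0 were called in limma at an unadjusted p under 0.05.

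**Figure D5:**
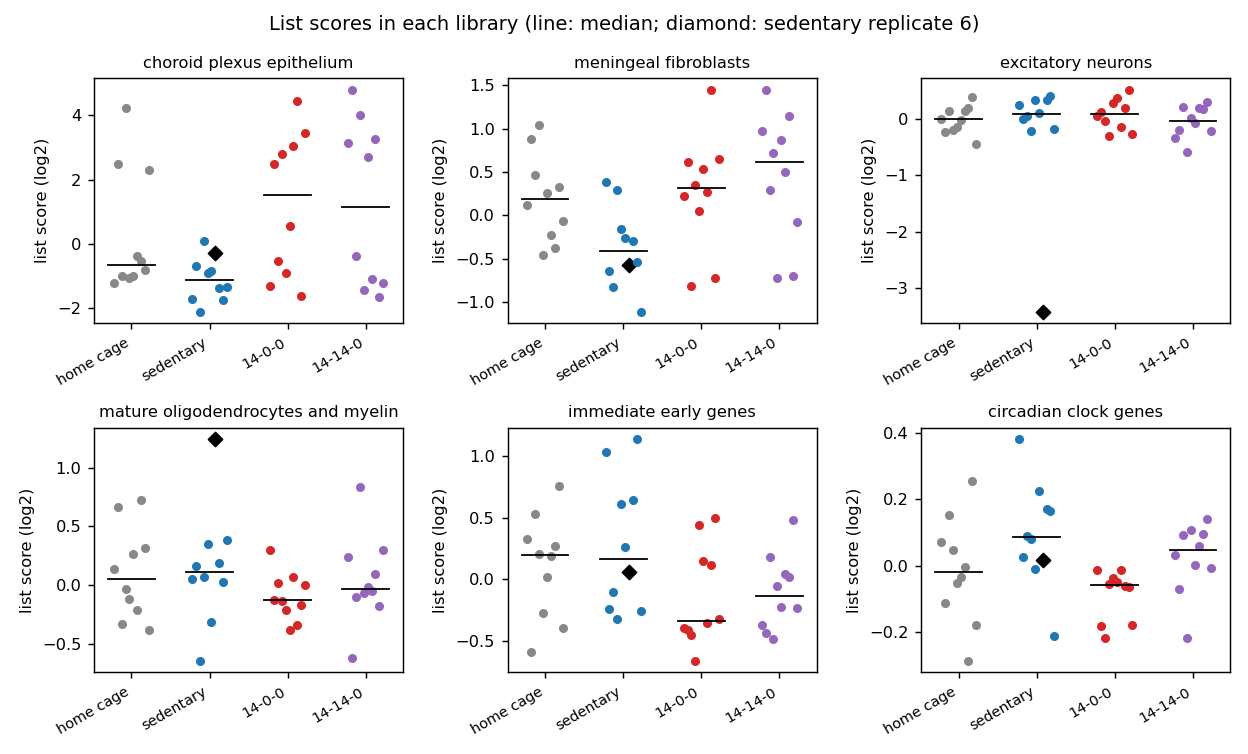
Score of 6 gene lists (y axis, mean log2 deviation from the mean of the 70 libraries) in each of the 10 libraries of home cage, sedentary, 14-0-0 and 14-14-0 mice; points are libraries, lines are medians and the diamond is sedentary replicate 6. Choroid plexus scores are below 0.1 in all sedentary libraries and reach 4.45 in 14-0-0, and the diamond stands at -3.41 for excitatory neurons and 1.24 for myelin.

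Across all genes, the choroid plexus score as a covariate left 533 calls up and 241 down, and 269 and 132 of these were calls of the comparison without it, which amounts to 33.9% and 33.4% of its calls, while 88 genes called higher without it had a negative estimate with it. With sedentary replicate 6 left out as well, 463 and 227 genes were called, with 223 and 96 shared. What part of the loss comes from adjusting for cell makeup and what part from the wider errors when the covariate differs between groups was not tested. Per2, Ciart, Dbp, Arntl, Inhbb, Mylk3, Hrsp12, Acvr1c, Bambi and Nsdhl were called with the covariate, and Sgk1, Fos, Fosb, Arc, Tgfbr2, Kdr and Emcn were not.

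The effect of running was also compared between the harvest cohorts. Cohort 1 alone gave 748 calls up and 284 down, and cohort 2 alone 391 and 220, or 646 and 429 without replicate 6. The difference of the effect between cohorts was called in 363 genes (2.79% of genes tested) and 0 passed adjustment in limma (smallest adjusted p = 0.956). Per2 changed by -0.56 and -0.35 in cohorts 1 and 2, Arntl by 0.37 and 0.35, Egr1 by -0.65 and -0.61, Inhbb by -0.49 and -0.54 and Acvr1c by 0.59 and 0.50. Without sedentary replicate 6 the cohort 2 values were -0.43 for Per2, 0.23 for Arntl, -0.59 for Egr1, -0.51 for Inhbb and 0.21 for Acvr1c. The choroid plexus gene Kcne2 changed by 2.23 and 4.81.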

How the data were processed

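RNA was sequenced from dorsal hippocampus, and per the submitters' processing notes reads were aligned to mm10 with Bowtie and normalized with Cuffnorm. The authors deposited 1 table of FPKM values for 24346 genes in all 70 libraries; counts were not used here, so depth is known only in relative terms and no counting interval can be given. Relative depth was estimated as the inverse of the commonest ratio of values to those of sedentary replicate 0, over genes with a mean under 0.1 FPKM. Groups came from the sample labels, and the members and lists were chosen with earlier results of these data known. The labels do not tie libraries to litters or cages, and p-values measure only the spread between these libraries.

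The 12994 genes averaging 1 FPKM or more across the 70 libraries were tested on log2(FPKM + 0.1) with limma 3.58.1 in R 4.3.3 (moderated two-sided test with a mean-variance trend), on the libraries of the 2 groups compared, and p-values were adjusted by Benjamini-Hochberg over all genes tested. Calls used an unadjusted p under 0.05, the kind of criterion the study's methods state. The scripts were tested on simulated data. The choroid plexus score covariate is the mean over that list of the log2 value minus the gene's mean over the 70 libraries.

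Genes were named by rule: the 15 higher and 10 lower genes of smallest p called with and without sedentary replicate 6 (leaving out Mir and Snor symbols, Gm symbols with digits and Rik symbols), up to 4 called members per list with its defining members, Acvr1c, Bdnf, and the 5 lowest and 5 highest genes of replicate 6. Others are said to be picked after their values were seen, or are the further members of a list that were called. The 39 lists are those of the plot of list medians. Alternatives were the pseudocount, the FPKM minimum, median ratio and quantile scaling, cohort and choroid covariates, cohorts alone, a replicate block, a robust fit, Cyber-T (rewritten from its formula, window 101, 10 prior degrees of freedom), a joint fit of 7 groups and leaving out each library. Harvest cohort 2 without replicate 6 was added after seeing the data. A few genes that these rules would name are not reported here.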

Additional observations from a re-analysis of the deposited data

Results flagged for a closer look

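Single libraries far from the rest of their group were found in 31 of 268 sets of 10 values. The sets were 94 genes and 39 list scores in both groups and the relative depth. In independent, unselected sets chance gives about 1 in 20, or 13.4. These sets share libraries, and some of the genes were picked after their values in replicate 6 were seen, so 31 and 13.4 give no test. Of the 31, 25 were sedentary replicate 6. In that library Neurod6 (2.45 FPKM), Slc17a7 (17.1), Hrk (2.66), Bdnf (1.18), Ndst4 (2.26), Mylk3 (0.0993), Arntl (8.22), Tef (74.7), Fkbp5 (10) and Ift57 (13.9) were far below the other 9 sedentary libraries, and Hmgb3 (30.1), Mgst1 (23.1), Igfbpl1 (10.9), Agt (24.5) and Ttc23 (1.56) far above. Its list scores were low for excitatory neurons (-3.41), dentate gyrus granule cells (-3.04), CA1 (-1.77) and CA2 and CA3 pyramidal cells (-1.18), late activity-induced genes (-0.855), neurotrophins and exercise factors (-0.795) and glucocorticoid-responsive genes (-0.361). They were high for thalamic and other non-hippocampal neurons (1.23), newborn neurons and progenitors (0.886) and oligodendrocyte precursors (0.805).

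Outside that library, Pir stood at 1.85 FPKM in sedentary replicate 8, Gm2a at 21 in 14-0-0 replicate 7 and Dnajb1 at 11.9 in 14-0-0 replicate 1, whose relative depth of 0.329 was also far below the other 14-0-0 libraries. The microglia score was 0.289 in sedentary replicate 4 and the score of thalamic and other non-hippocampal neurons 0.443 in 14-0-0 replicate 0, each far above its group.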

How the results depend on the processing

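Counts of genes called higher or lower against sedentary (794 and 395) changed by over 1.5 times under these settings, whose cause was not tested except where fewer genes or samples entered. Genes called higher numbered 501 with a minimum of 5 FPKM and 519 with Cyber-T on log2 values. At an unadjusted p under 0.01 there were 269 higher and 84 lower. Harvest cohort 2 alone gave 391 and 220. The choroid plexus score as a covariate gave 241 lower, and with sedentary replicate 6 left out as well 463 higher and 227 lower. The robust fit gave 614 lower, with 993 higher, and 34 higher and 20 lower genes passed adjustment, against 0 in limma without it; the joint fit of 7 groups passed 2 and 2. Leaving out 1 library gave 655 to 1056 higher and 281 to 621 lower, the highest counts of lower genes being 621 without sedentary replicate 3 and 599 without 14-0-0 replicate 5. With the replicate block 1028 genes were higher and 854 lower, and 4 passed adjustment in limma. Beyond the harvest cohort the labels tie no litter or day to a number, and the data do not settle whether numbers pair the mice: deviations of same-numbered libraries correlated by -0.0187 to 0.355 over 10 pairs, 7 of them over 0.1, and 3 correlated best with their own number.

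Scaling moved the split of calls. The share of higher calls against sedentary was 66.8%, or 56.6% under quantile normalization (688 higher, 528 lower). Median ratio scaling gave 451 higher and 472 lower against home cage, and 433 and 342 against 14-14-0. The difference of the effect between cohorts was called in 820 genes without sedentary replicate 6 and 659 with the replicate block.

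Of the 94 named genes, direction reversed for Emcn (-0.0435) and Pifo (-0.248) with the choroid plexus covariate and for Emcn (-0.0668) with replicate 6 left out as well. With that covariate 35 others lost their call. Depth limits low genes most, above all in 14-0-0 replicate 1.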
